A study of Homo sapiens with 6 samples.

Results

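The 8 genes described here encode enzymes of serine synthesis (PHGDH, PSAT1, PSPH), of the serine branch of folate one-carbon metabolism (SHMT1, SHMT2, MTHFD2) and of transsulfuration (CBS, CTH). They were taken by gene name, and all 8 were found among the 58735 genes of the deposited table. The set was chosen by pathway and from the difference of CBS between the TRPV3 and mock libraries, so that difference is given below as a description. Where the enzymes are counted among genes past a threshold, the share of all genes stands beside the count, and the count supports nothing. The series holds 6 RNA-seq libraries of SZ95, an immortalised line of human sebaceous gland cells. Of these, 3 came from cells that received a TRPV3-overexpression plasmid and 3 from cells that received a mock plasmid, whose genotype is labelled WT, all at 24 h. Both groups were transfected, and the sources used here name neither the promoter of the plasmid nor the share of cells that took it up. TRPV3 is a cation channel of the skin that lets calcium into the cell when warmed, and the design text names sebocyte inflammation as the subject.

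Serine is made from the glycolytic intermediate 3-phosphoglycerate in a chain of reactions run by PHGDH, PSAT1 and PSPH. The serine hydroxymethyltransferases SHMT1 (cytosol) and SHMT2 (mitochondria) turn serine into glycine and load a carbon unit onto folate, which MTHFD2 oxidises in mitochondria for nucleotide synthesis. CBS joins serine to homocysteine to form cystathionine, and CTH splits cystathionine to release cysteine, the limiting building block of glutathione; both can also produce hydrogen sulfide. Several of these genes are known targets of the stress-induced transcription factor ATF4.

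One property of CBS bears on every value of it. CBS lies on chromosome 21 (hg38, 43053191 to 43076943, minus strand), and the annotation used for the table holds a near-copy on the same chromosome, CBSL (6444869 to 6468040, minus strand). RefSeq has no entry named CBSL and lists that name as a synonym of both CBS and LOC102724560. Whether CBSL is a gene apart from CBS was not tested. In GENCODE 29 the CBS transcript CBS-203 and the CBSL transcript CBSL-206 are each 2453 bases long and differ at 1 base, written C807T (counted from 1 at the 5′ end of the transcript, with the CBS base first). This base is coding position 699, the base at place 3 of codon 233, in exon 8 of 17, at position 43065240 in CBS and 6456918 in CBSL. The 121 bases of spliced coding sequence around it are shown because these reference transcripts differ nowhere else. Whether the base in a read tells the genes apart in these cells was not tested. The capital letter marks the base that differs.
CBS-203: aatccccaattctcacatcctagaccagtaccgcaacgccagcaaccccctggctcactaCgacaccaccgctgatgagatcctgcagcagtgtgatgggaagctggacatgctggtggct
CBSL-206: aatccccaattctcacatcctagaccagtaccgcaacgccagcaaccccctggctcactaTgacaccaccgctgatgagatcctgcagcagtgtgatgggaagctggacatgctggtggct

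Over all annotated transcripts, 83.5% of the 100-base words of CBSL also occurred in CBS transcripts. In the other direction 50.3% of the CBS words occurred in CBSL. The annotated exons cover 6786 bases in CBS and 4004 in CBSL. The sources used here do not say how reads that match both copies were counted.

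The deposited values are FPKM, which scale the reads of a gene by its length and by a divisor for each library. Whole reads could be recovered from them, between 17415032 and 18365785 per TRPV3 library and between 16015998 and 17468135 per mock library. TRPV3 itself, the check of the labels, averaged 648 ± 103 FPKM in TRPV3 libraries and 0.404 ± 0.0400 FPKM in mock libraries (SD, n = 3 each). Of 9 epithelial and keratinocyte markers 7 reached 1 FPKM in a group. KRT8, KRT18, KRT5, CDH1 and EPCAM were each above 100 FPKM in both groups. KRT14 averaged only 1.19 FPKM with TRPV3 and 0.859 FPKM with mock, KRT1 averaged 0 and 0.0221 FPKM, and LOR was at 0 in all libraries. Of 14 sebocyte markers 10 reached 1 FPKM in a group, among them KRT7 at above 100 FPKM in both. The wax synthase AWAT2 was listed at 0 in all libraries. Of the markers of other cells, 1 of 6 for fibroblasts (COL1A1), 1 of 4 for immune cells (CD14), 1 of 2 for endothelium (CDH5) and 1 of 3 for melanocytes (PMEL) reached 1 FPKM. TRPV3 replicate 1 stood apart from the other libraries: with the genes in 3 equal classes of length, its longest class lay 0.42 lower than its shortest on the log2 scale, where in the other 5 libraries it lay between 0.04 and 0.15 higher. In such bulk samples a change in the share of cells and a change in RNA per cell cannot be told apart.

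The 3 enzymes of serine synthesis overlapped between TRPV3 and mock libraries. PHGDH (ENSG00000092621; chromosome 1, 119648411 to 119744226, plus strand), the dehydrogenase that opens the pathway, was at 38.6, 30.4 and 29.5 FPKM in TRPV3 replicates 1 to 3 and at 30.0, 31.7 and 34.1 FPKM in mock replicates 1 to 3. TRPV3 replicate 1 lay above the mock range and TRPV3 replicate 3 just below it. PHGDH averaged 32.8 ± 5.04 FPKM in TRPV3 libraries and 31.9 ± 2.09 FPKM in mock libraries (SD, n = 3 each). Between replicates its level varied by 15.3% with TRPV3 and by 6.55% with mock (SD over mean), where counting alone gives 1.37% and 1.40%.

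PSAT1 (ENSG00000135069; chromosome 9, 78297143 to 78330093, plus strand), the aminotransferase of the middle step, was the most abundant of the 8 enzymes. It was at 143, 146 and 138 FPKM in TRPV3 replicates 1 to 3 and at 149, 155 and 145 FPKM in mock replicates 1 to 3. TRPV3 replicate 2 lay above mock replicate 3, so the groups overlapped by 1.79 FPKM. Its mean in TRPV3 libraries was 0.953 of that in mock libraries. PSPH (ENSG00000146733; chromosome 7, 56011051 to 56051604, minus strand), the phosphatase of the last step, was at 14.9, 14.3 and 13.3 FPKM in TRPV3 replicates 1 to 3 and at 13.7, 14.1 and 15.2 FPKM in mock replicates 1 to 3. Each group held one of the extremes, TRPV3 replicate 3 the lowest and mock replicate 3 the highest.

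**Figure D1:**
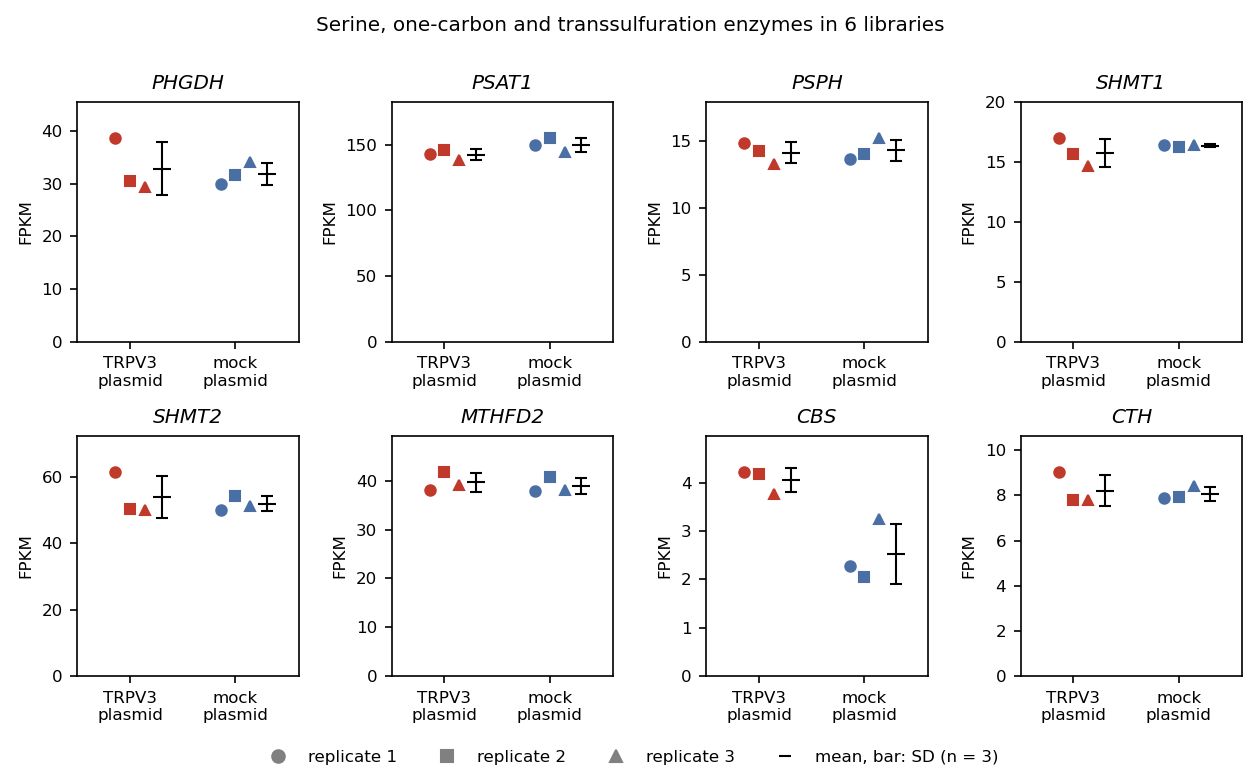
FPKM of each of the 8 enzymes (vertical axes, each from 0) in TRPV3 and mock libraries; colours mark the group, symbols the replicate, and the black bar the mean with its SD (n = 3). In CBS the TRPV3 libraries, from 3.77 to 4.22 FPKM, all lie above the mock libraries, from 2.06 to 3.24 FPKM, and in the other 7 enzymes the groups overlap.

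Among the folate enzymes, SHMT2 (ENSG00000182199; chromosome 12, 57229327 to 57234935, plus strand), the mitochondrial hydroxymethyltransferase, was at 61.4, 50.5 and 50.1 FPKM in TRPV3 replicates 1 to 3 and at 50.2, 54.4 and 51.3 FPKM in mock replicates 1 to 3. As for PHGDH, the highest value was that of TRPV3 replicate 1, which was 1.22 times the mean of the other TRPV3 libraries (1.29 times for PHGDH). SHMT1 (ENSG00000176974; chromosome 17, 18327860 to 18363563, minus strand), its cytosolic counterpart, was at 17.0, 15.7 and 14.7 FPKM in TRPV3 replicates 1 to 3 and at 16.4, 16.3 and 16.5 FPKM in mock replicates 1 to 3. The mock libraries of SHMT1 differed by only 0.620% (SD over mean), below the 2.20% that counting alone gives. TRPV3 replicates 2 and 3 lay below that narrow range and TRPV3 replicate 1 above it. The ratio of SHMT2 to SHMT1 was 3.42 ± 0.193 in TRPV3 libraries and 3.17 ± 0.152 in mock libraries (SD, n = 3 each). SHMT1 shares 196 exonic bases with SMCR8 on the opposite strand, which had 726 to 1417 reads per library, and it is not stated whether the counting used strand.

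MTHFD2 (ENSG00000065911; chromosome 2, 74198562 to 74217565, plus strand), the mitochondrial dehydrogenase and cyclohydrolase, was at 38.0, 41.7 and 39.2 FPKM in TRPV3 replicates 1 to 3 and at 37.9, 40.8 and 38.1 FPKM in mock replicates 1 to 3. The highest library of each group was replicate 2, and the groups overlapped over most of their range. Its level was 39.3 ± 5.37 times that of its paralog MTHFD2L in TRPV3 libraries and 39.3 ± 4.36 times in mock libraries (SD, n = 3 each). Annotated pseudogenes took almost no reads: the 7 of MTHFD2 had at most 3 reads in a library, the 4 of PSAT1 at most 1, and PSPHP1 and SHMT1P1 were at 0.

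The transsulfuration enzymes differed from each other. CBS (ENSG00000160200), which commits homocysteine to cysteine synthesis, was at 4.22, 4.19 and 3.77 FPKM in TRPV3 replicates 1 to 3 and at 2.28, 2.06 and 3.24 FPKM in mock replicates 1 to 3. All 3 TRPV3 libraries exceeded all 3 mock libraries, with a gap of 0.530 FPKM between the lowest TRPV3 and the highest mock value. CBS averaged 4.06 ± 0.249 FPKM in TRPV3 libraries and 2.53 ± 0.628 FPKM in mock libraries (SD, n = 3 each), a ratio of means of 1.61. These values rest on 505, 509 and 448 reads in TRPV3 replicates 1 to 3 and on 272, 227 and 401 reads in mock replicates 1 to 3. Exact Poisson 95% intervals, which cover counting error only, ran from 407 to 491 reads for the lowest TRPV3 library and from 363 to 442 reads for the highest mock library.

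CTH (ENSG00000116761; chromosome 1, 70411218 to 70439851, plus strand), which acts next, overlapped between the groups. It was at 9.02, 7.80 and 7.81 FPKM in TRPV3 replicates 1 to 3 and at 7.88, 7.91 and 8.43 FPKM in mock replicates 1 to 3. TRPV3 replicate 1 was the highest library, and the other TRPV3 libraries lay just below the mock range. The ratio of CBS to CTH within a library was 0.468, 0.537 and 0.483 in TRPV3 replicates 1 to 3 and 0.290, 0.260 and 0.384 in mock replicates 1 to 3, and the groups did not overlap. This ratio is of FPKM, which divide by all annotated exons (6786 bases for CBS and 2414 for CTH). In reads CBS exceeded CTH in all 3 TRPV3 libraries and in mock replicate 3, with 384, 337 and 330 CTH reads in TRPV3 replicates 1 to 3 and 334, 310 and 371 in mock replicates 1 to 3. Since CBS-203 is only 2453 bases long, which gene had more mRNA in those libraries depends on the length used. In mock replicates 1 and 2 CBS was below CTH in FPKM and in reads.

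CBS was also the least even of the 8 enzymes among mock libraries. Its mock values varied by 24.8% (SD over mean), where counting gives 5.77%, and those of the other 7 enzymes by 0.620% to 6.55%. Among the 2167 tested genes with a mock mean of 2 to 4 FPKM the median was 8.28%, and CBS stood at percentile 92.9. In TRPV3 libraries CBS varied by 6.14%, close to the 4.53% of counting. Mock replicate 3 was nearest to the TRPV3 libraries and mock replicate 2 farthest.

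Reads on the near-copy were uneven as well. CBSL had 18, 15 and 20 reads in TRPV3 replicates 1 to 3 and 126, 13 and 18 reads in mock replicates 1 to 3. In mock replicate 1 CBSL thus took 31.7% of the reads of the pair, with an exact binomial 95% interval of 27.1% to 36.5% that covers counting error only, against 2.86% to 5.42% in the other 5 libraries. With both genes added, the pair had 523, 524 and 468 reads in TRPV3 replicates 1 to 3 and 398, 240 and 419 reads in mock replicates 1 to 3. Every TRPV3 library was still above every mock library. Scaled with the authors' divisor, the pair averaged 499 ± 27.6 reads in TRPV3 libraries and 352 ± 81.2 reads in mock libraries (SD, n = 3 each), a ratio of 1.42 where CBS alone gave 1.61. If CBSL is not a gene apart from CBS, the ratio of the pair is the one that describes CBS.

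**Figure D2:**
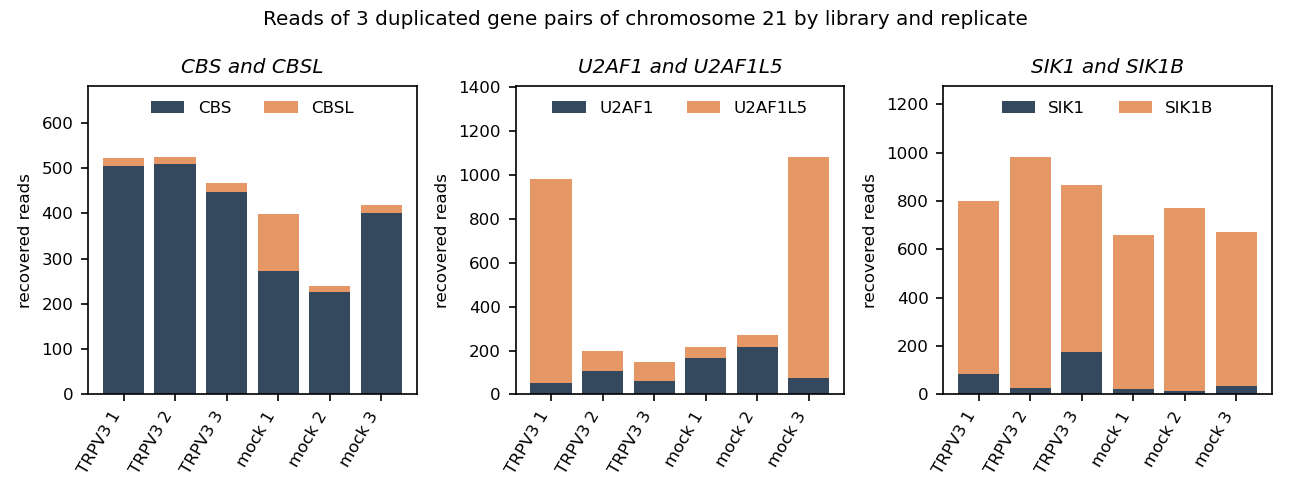
Recovered reads (vertical axes) of CBS, U2AF1 and SIK1 (dark) and of their near-copies CBSL, U2AF1L5 and SIK1B (orange) in each library, TRPV3 replicates left of mock replicates. CBSL is large in mock replicate 1 alone, with 126 reads, and U2AF1L5 in TRPV3 replicate 1 and mock replicate 3, with 929 and 1008 reads.

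Neighbours of CBS on chromosome 21 with near-copies of their own were uneven in different libraries. U2AF1, a splicing factor gene next to CBS, and its copy U2AF1L5 together had 982, 200 and 146 reads in TRPV3 replicates 1 to 3 and 214, 269 and 1082 reads in mock replicates 1 to 3. This is a 7.41-fold range, and its high libraries, TRPV3 replicate 1 and mock replicate 3, belong to different groups. SIK1, a kinase gene, and SIK1B together had 800, 981 and 864 reads in TRPV3 replicates 1 to 3 and 657, 771 and 673 reads in mock replicates 1 to 3, a 1.49-fold range. The CBS pair, with a 2.18-fold range, lay between them. The part of the copies in the CBS difference was not tested beyond adding their reads. Without TRPV3 replicate 1 and mock replicate 3 together, a choice made after seeing the data, the CBS log2 difference was 0.65 (SE 0.09), larger than with all libraries. Mock replicate 3 was the highest mock library of CBS. The difference was 0.67 without that library alone and 0.51 without TRPV3 replicate 1 alone. The larger value thus follows from the CBS values left out and does not bear on the copies.

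Set side by side on the log2(FPKM + 1) scale, which understates the change of low genes, CBS differed by 0.53 (SE 0.13) between TRPV3 and mock libraries. The other 7 enzymes differed by between -0.07 and 0.05, each by less than its own SE (0.08 to 0.12). Of these, 4 were above 0 and 3 below. The median over the 8 enzymes was 0.02, and the median over all 12177 genes tested was 0.01. All 8 enzymes passed the filter of a mean of 1 FPKM over the 6 libraries. By limma with Benjamini-Hochberg adjustment over all genes tested, 0 of the 8 were called at 0.05, where 0.0411% of all genes were. At an unadjusted limma p under 0.05 there was 1 (CBS), where 4.48% of all genes were. With limma-voom on the recovered reads 0 were called, where 0.0328% of all genes were. Every TRPV3 library was above every mock library in 1 enzyme (CBS), as in 9.49% of all genes, and below in 0, as in 5.39% of all genes. Since CBS was picked with this contrast known, nothing is read from these counts. Scaling the values to a common total (TPM) turned the counts over all genes, 1155 above and 656 below, to 601 above and 1236 below, and placed PSAT1 and SHMT1 below without overlap, at -0.17 and -0.14.

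**Figure D3:**
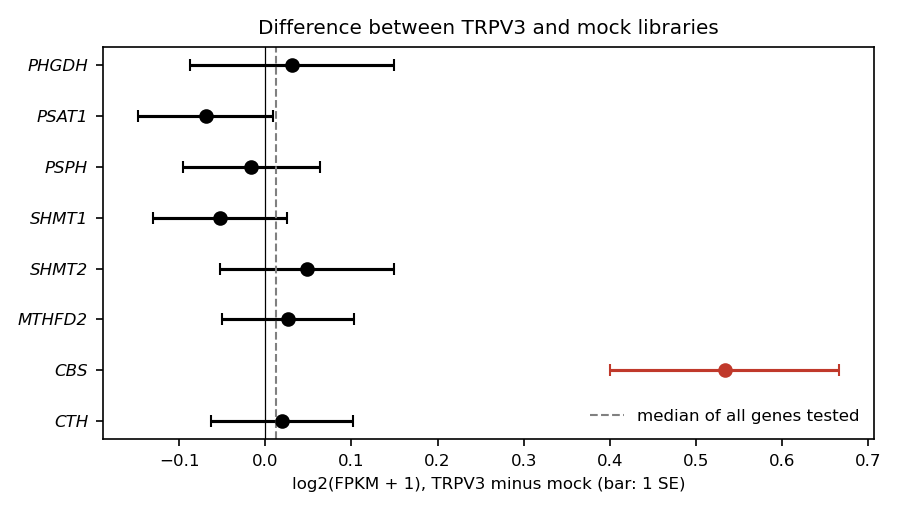
Difference in log2(FPKM + 1) between TRPV3 and mock libraries (horizontal axis) for each enzyme, with 1 SE as the bar and the median of all genes tested as the dashed line. CBS lies at 0.53, and the bars of the other 7 enzymes all span 0.

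The CBS difference kept its sign and the separation of the groups in all 20 alternatives in which CBS was measured, with values from 0.41, when CBSL reads were added, to 0.87. CBS was picked for this difference, and its groups were separate to begin with. Leaving out libraries, or changing only the pseudocount, the filter or the model, cannot undo that. Only alternatives that changed the scaling, the length trend or the reads could have done so. Median-of-ratios scaling was not among these, since it left the differences and counts as they were. Mock replicate 3 moved the CBS difference most among single libraries, to 0.67 without it, and mock replicate 2 the other way, to 0.44 without it. The highest value came from limma-voom on the recovered reads without TRPV3 replicate 1 and mock replicate 3, a choice made after seeing the data, with 2 libraries per group. There 1 of the 8 enzymes (CBS) was called, as were 1.17% of all genes, and nothing is read from that call. The signs of CTH, PHGDH, PSPH, SHMT2 and MTHFD2 changed with the alternative, whereas PSAT1 and SHMT1 were below 0 in all 21. In PSAT1 the groups separated in 10 of the 21, and in SHMT1 in 8, always with TRPV3 libraries below. In those alternatives 871 to 2672 of the 12177 genes tested lay below without overlap, against 656 as reported. For limma-voom, separation was judged after scaling to total recovered reads, whereas the fit used median-of-ratios scaling. The limma-voom separations are thus not those of the fitted values. Groups also separate more easily with fewer libraries, so nothing is read from these counts.

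**Figure D4:**
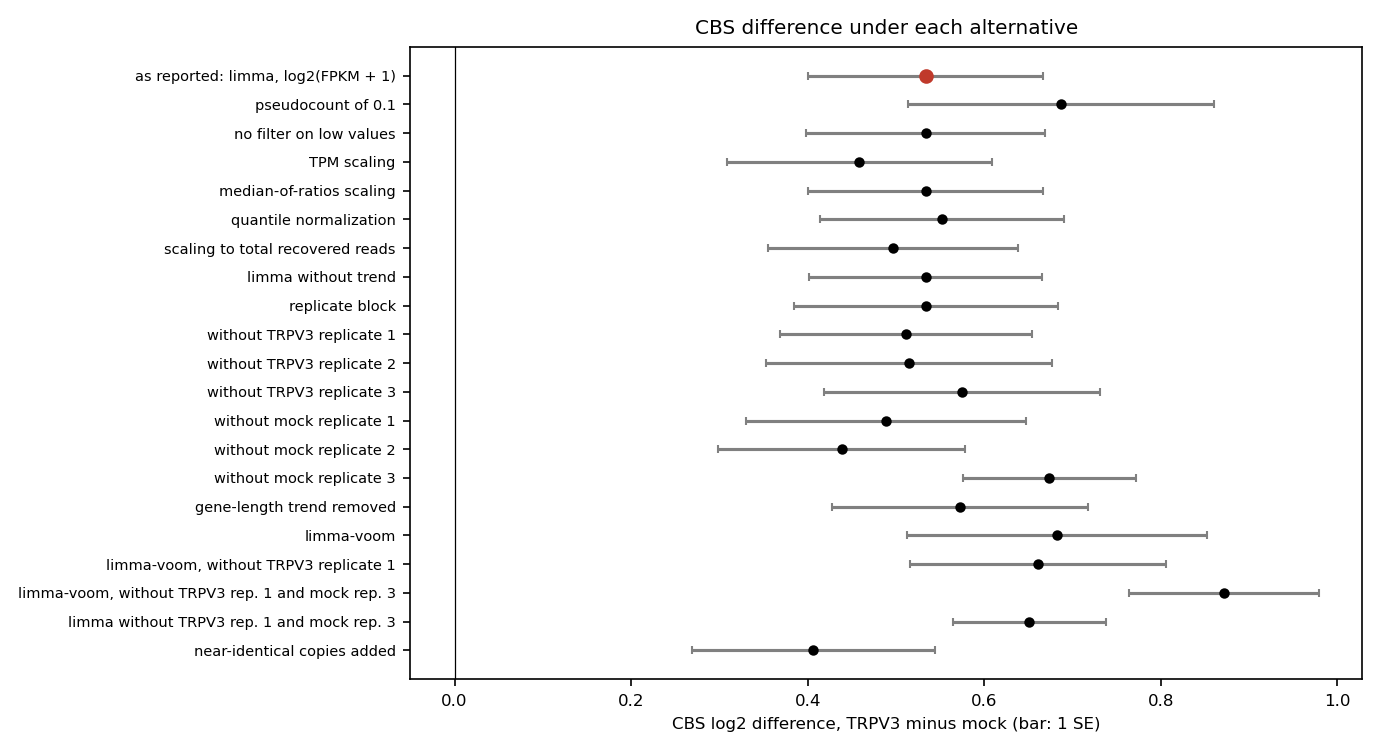
CBS log2 difference, TRPV3 minus mock, with 1 SE as the bar (horizontal axis) for the values as reported (red) and under each alternative (rows). All lie above 0, from 0.41 with CBSL reads added to 0.87; the limma-voom rows are on a log2 scale without the added 1 FPKM.

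In FPKM the order of the means was the same in both groups: PSAT1, then SHMT2, MTHFD2, PHGDH, SHMT1, PSPH, CTH and CBS. The lengths behind it are of all annotated exons, from 2188 bases for PSAT1 to 9217 for PHGDH, and can exceed the length of the mRNA in use by an amount that differs between genes. The order is therefore one of FPKM and not of mRNA number, and in TRPV3 libraries the places of CBS and CTH depend on the length as described above. In mock libraries no neighbours in this order overlapped. In TRPV3 libraries MTHFD2 and PHGDH overlapped, as did SHMT1 and PSPH. In mock libraries PSAT1 stood at percentile 98.3 of the genes tested and CBS at 21.8; in TRPV3 libraries the percentiles were 98.0 and 34.7. Of the 8 enzymes, 5 had their highest value in TRPV3 replicate 1. Without that library the differences of PHGDH, SHMT2 and CTH were below 0, and that of CBS was 0.51.

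Genes around these enzymes, in lists of 83 genes set by pathway, separated about as often as all genes did. Of 67 that were tested 0 were called in either direction by limma or by limma-voom with all libraries, 3 had an unadjusted limma p under 0.05, 5 had every TRPV3 library above every mock library and 6 had every one below. Over all genes these shares were 4.48%, 9.49% and 5.39%. The median difference was -0.05 in 17 genes of serine and glycine handling, 0.000909 in 16 of the folate cycle, 0.04 in 10 of the methionine cycle, -0.00284 in 17 of cysteine, sulfide, taurine and glutathione metabolism and 0.13 in 7 of the amino acid response. In each list the named genes are the up to 2 with the widest difference among those whose groups did not overlap. In serine and glycine handling they were the glycine transporter SLC6A9, at 5.17 ± 0.687 FPKM with TRPV3 and 6.36 ± 0.507 FPKM with mock, and the serine racemase SRR, at 2.27 ± 0.326 FPKM with TRPV3 and 2.64 ± 0.0954 FPKM with mock (SD, n = 3 each). In the folate and methionine lists the purine synthesis enzyme ATIC was at 54.5 ± 5.04 FPKM with TRPV3 and 50.3 ± 0.653 FPKM with mock, and the salvage enzyme MTAP at 3.98 ± 0.158 FPKM with TRPV3 and 3.69 ± 0.145 FPKM with mock.

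Next to the transsulfuration enzymes, SQOR, which oxidises hydrogen sulfide in mitochondria, was at 9.91, 6.21 and 5.70 FPKM in TRPV3 replicates 1 to 3 and at 4.87, 5.41 and 5.31 FPKM in mock replicates 1 to 3 (log2 difference 0.38, SE 0.18). SLC7A11, the cystine importer that supplies cysteine from outside the cell, was at 2.17, 3.19 and 3.44 FPKM in TRPV3 replicates 1 to 3 and at 3.93, 4.29 and 3.45 FPKM in mock replicates 1 to 3 (log2 difference -0.33, SE 0.14). TRPV3 replicate 3 was only just below mock replicate 3 in SLC7A11, and TRPV3 replicate 1 was the highest in SQOR and the lowest in SLC7A11. CBS and SLC7A11, which feed the same cysteine pool, lay on opposite sides of 0. The limma adjusted p of SLC7A11 and SQOR was 0.755 each. The glutathione synthesis subunits GCLC and GCLM, which overlapped between the groups, differed by -0.07 and -0.03 (these and ATF4 were chosen after their values were seen). In the amino acid response list the stress factor DDIT3 was at 4.44 ± 1.09 FPKM with TRPV3 and 2.96 ± 0.273 FPKM with mock, and the leucine transporter SLC7A5 at 704 ± 83.1 FPKM with TRPV3 and 850 ± 7.98 FPKM with mock (SD, n = 3 each; limma adjusted p = 0.755 each). ATF4 itself overlapped between the groups, at 225, 170 and 164 FPKM in TRPV3 replicates 1 to 3 and at 160, 173 and 167 FPKM in mock replicates 1 to 3. Each of these 8 genes with separate groups kept its sign in all alternatives that measured it. They were picked for separate groups, so leaving out libraries, or changing only the pseudocount, the filter or the model, could not turn the sign. SLC7A5 was the 1 gene of these lists called in any alternative: it was lower by limma-voom on the recovered reads without TRPV3 replicate 1 (log2 difference -0.19) and without mock replicate 3 as well (-0.18). In these settings 0.591% and 1.17% of all genes were called. Its difference ranged from -0.41 to -0.18 over all alternatives.

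**Figure D5:**
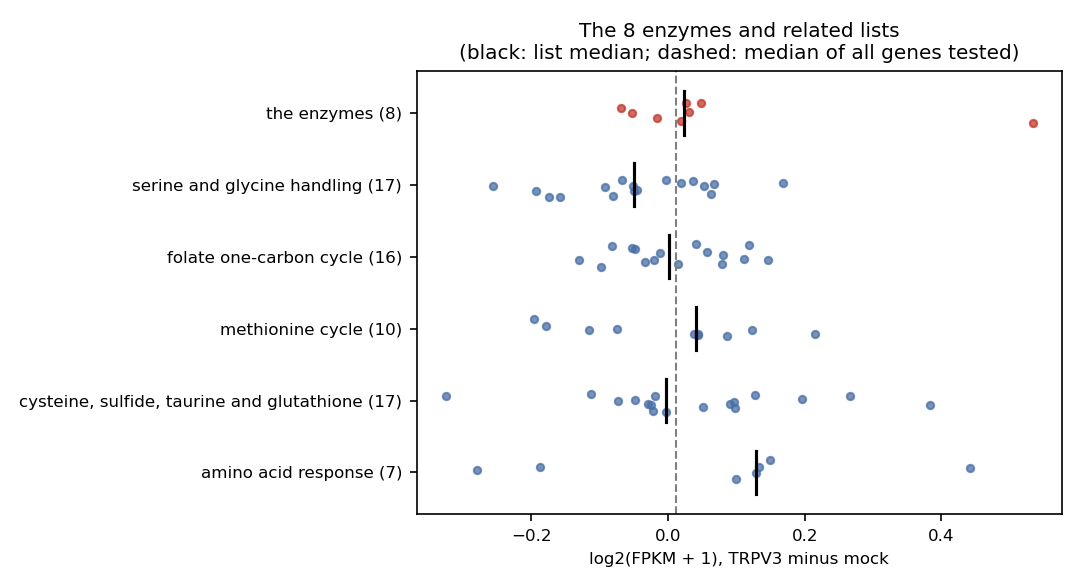
Difference in log2(FPKM + 1) between TRPV3 and mock libraries (horizontal axis) of each tested gene in the 8 enzymes (red) and in 5 related lists (blue, number of genes tested in brackets), with the median of each list in black and that of all genes tested as the dashed line. CBS, at 0.53, is the highest point of the plot, and the medians of the lists lie between -0.05 and 0.13.

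The profile of CBS over the 6 libraries, as log2(FPKM + 1) minus the mock mean, was compared with 10624 protein-coding genes by the root mean square difference. The 5 nearest were the ERK phosphatase DUSP6 (0.112), the ciliary gene B9D2 (0.119), the growth factor HBEGF (0.122), the cytokine CLCF1 (0.136) and the early response gene IER3 (0.137). DUSP6 was at 2.48, 2.16 and 2.13 FPKM in TRPV3 replicates 1 to 3 and at 1.41, 1.21 and 1.66 FPKM in mock replicates 1 to 3, so that mock replicate 3 was its highest and mock replicate 2 its lowest mock library, as for CBS. Such likeness follows from picking the nearest genes. The lowest mock library was also replicate 2 in HBEGF and IER3, but replicate 1 in B9D2 and CLCF1. The nearest of the other enzymes, PHGDH, ranked 4136. The libraries are shared by all genes compared, and the ranks are a description.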

How the data were processed

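RNA was measured in 6 libraries, 3 per group, made with TRIzol and a NEBNext Ultra kit per the labels' protocols. HISAT2 2.0.5 and hg38 are named in the submitters' processing notes. Per the file headers, the deposited table holds FPKM and gene lengths, which match GENCODE 29 for all 58735 genes; no source used here gives the counting tool, its strand setting or its treatment of reads with several matches. FPKM times length gave whole multiples of 1 step in 100% of values (tolerance 0.02 reads), and so reads; 3 reads, the limit that a count of 0 allows, equal 0.165 to 0.185 FPKM at 1 kb. The divisor behind the FPKM differed from the total of these reads by -3.93% in TRPV3 replicate 1, 4.78% in mock replicate 3 and less in the others.

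Genes whose mean over the 6 libraries reached 1 FPKM were fitted with limma 3.58.1 in R 4.3.3 on log2(FPKM + 1), with empirical Bayes and a mean-variance trend, and p-values were adjusted over all genes tested (threshold 0.05). Alternatives changed the pseudocount, the filter, the scaling, the length trend, the libraries and the tool (limma-voom on recovered reads). The fit was tested on simulated data. The members, lists and alternatives were chosen with earlier results of these data known. Named genes were the enzymes, their annotated copies, TRPV3, up to 2 genes per list with separate groups and the widest difference, and the 5 genes nearest to CBS. The design text calls the replicates biological. Figures were drawn with matplotlib 3.10.9 in Python 3.11.15.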

Additional observations from a re-analysis of the deposited data

How the results depend on the processing

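Genes called over the whole table numbered 5 as reported. They were 2 without a filter on low values, 3 with a filter of 5 FPKM (which leaves out CBS), 3 with the replicate number as a block, 2 to 8 when 1 library was left out, and 72 by limma-voom on the recovered reads without TRPV3 replicate 1. Without that library and mock replicate 3 together, chosen after seeing the data, they were 142 by limma-voom and 10 by limma. The cause of these moves was not tested. Genes called in the related lists were 0 as reported and 1 by limma-voom without TRPV3 replicate 1, with or without mock replicate 3. CBS differed by 0.87 by limma-voom without both libraries, by 0.44 to 0.67 with 1 library left out and by 0.53 with the replicate number as a block. Same-numbered libraries did not deviate together (correlations of -0.27, -0.04 and -0.17 for replicates 1, 2 and 3). Deviations of 3 libraries from their group mean are tied to each other, and TRPV3 replicate 1 stood apart. A pairing by number can therefore be neither shown nor excluded from these values.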
